A study of Drosophila melanogaster with 13 samples.

Results

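In eye-antennal discs of *Drosophila melanogaster* larvae, the open regions bound by CTCF were defined as the merged open chromatin peaks that overlap a CTCF ChIP-seq peak by at least 1 bp. Of 36506 merged peaks with counts, 2989 met this rule, which is 8.19%, and 33517 did not. CTCF binding was measured in 1 ChIP-seq sample of CantonS wild type discs without a replicate, so that binding in the other strains, in the tumors and after Upd overexpression was not measured. The rule used no open chromatin count.

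CTCF is a zinc finger protein that binds DNA and is best known as an insulator protein, which separates an enhancer from promoters outside its domain. In vertebrates it marks the borders of many chromatin domains together with cohesin. In *Drosophila* it shares this task with several other insulator proteins, and its binding sites usually lie in DNA that is kept free of nucleosomes.

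Open chromatin was measured in 11 samples, which the labels place in wandering larvae of the last instar, by ATAC-seq, where a transposase cuts accessible DNA of unfixed cells, and by FAIRE-seq, where formaldehyde-fixed chromatin is extracted and DNA free of crosslinked protein is collected. The wild type samples were w;;FRT82, DGRP-208 and Optix-GFP for ATAC-seq and w;;FRT82 and CantonS for FAIRE-seq, each 1 library of 1 strain. Tumors came from flies with y,w,eyFlp, with act>y+>Gal4, UAS-GFP and with FRT82,Tub-Gal80, crossed to flies with y,w, with UAS-RasV12 and with FRT82,scrib2, which gives clones that lack *scrib* and express RasV12, with 1 early and 1 late sample per technique. Early tumor discs still hold normal tissue, whereas by the late stage the tumor has replaced the eye disc. By the study's methods the late tumors were taken days after wandering began, in a prolonged larval life, so that they are older than every wild type they were compared with, and age and tumor stage cannot be told apart. For overexpression of Upd, a ligand of the JAK/STAT pathway, GMR-gal4 was crossed to UAS-UPD:GFP, with 2 ATAC-seq samples, and GMR drives expression in only a part of the eye disc. A change in a whole disc can come from a change in each cell or from a change in the mixture of cells, and the counts cannot tell these apart. Labels give 10 discs per ATAC-seq sample and 200 per FAIRE-seq sample, although the methods name a smaller number of whole tumors for the late ATAC-seq sample. Between 2375435 and 10871706 reads per sample fell in merged peaks. Nothing in the labels says that the 2 Upd samples came from separate crosses, so that their spread may be technical. The tissue label was not checked against marker genes, because genes could be assigned only to the regions that the tables of the study pair with a gene.

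The CTCF list has 3679 peaks, of which 3634 lie on the 6 chromosome arms with counts. Of these, 2658 (73.1%) overlapped a merged peak and 976 did not. The CTCF peaks inside and outside open chromatin were of similar length, with medians of 296 bp and 284.5 bp. Of the open regions bound by CTCF, 2197 held the centre of a CTCF peak, 2119 covered at least 40% of one and 1540 covered at least 80%. The distance between the centres of region and CTCF peak had a median of 105 bp, and 48.5% of the regions had their centre within 100 bp of the CTCF centre. Binding was spread over all arms, from 7.76% of the merged peaks on 2L to 9.18% on X. Some regions share a CTCF peak, since 727 lay under one that overlaps another bound region too, and 68 regions overlapped 2 or 3 CTCF peaks. The study took only the part of its CTCF peaks with a significant CTCF motif as sites of high confidence. Motifs were not checked here, so that bound means overlap with a ChIP-seq peak.

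Regions bound by CTCF were longer and more often called open than the others. Their median length was 374 bp (quartiles 253 and 616 bp) against 260 bp (167 and 431 bp) for regions without CTCF. Any overlap with a CTCF peak met the rule, so that a longer region could meet it more easily. How much of the gap in length comes from the rule was not tested. The shares of called regions are not given by length, so that the part of length in them was not tested either. A peak was called in all 11 samples at 54.4% of the bound regions and at 22.1% of the others, while 7.13% and 22.1% were called in a single sample. Of the bound regions, 59.0% were called in all 5 wild type samples and 4.72% in none of them, against 26.8% and 21.7% of the others. In each sample the share of called bound regions exceeded that of the others. It ranged from 72.1% in the FRT82 FAIRE-seq sample, which has the fewest reads, to 84.2% in the CantonS FAIRE-seq sample, which is of the strain used for ChIP-seq, while among the other regions it ranged from 37.7% to 59.5%.

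**Figure D1:**
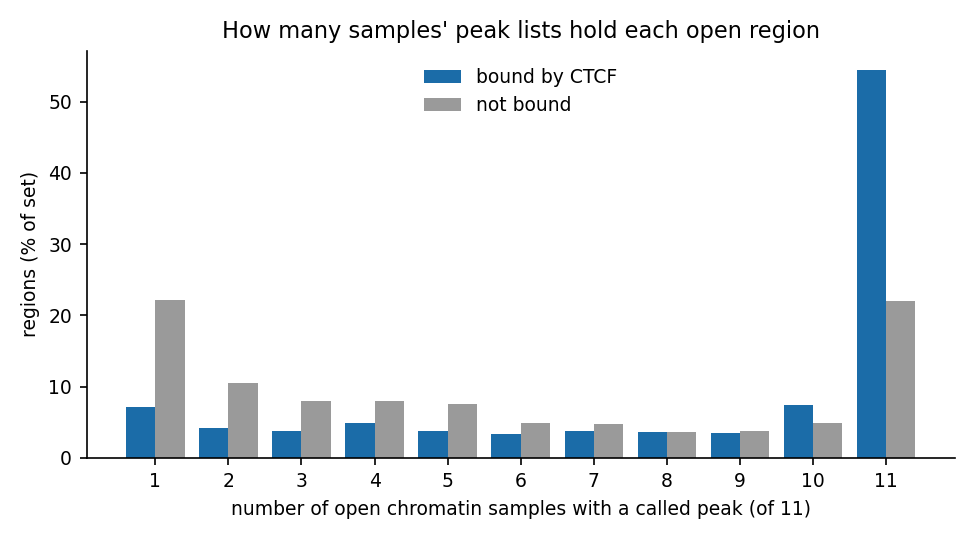
The x axis gives the number of open chromatin samples, of 11, in which a region was called as a peak, and the y axis the percentage of regions, for regions bound by CTCF (blue) and not bound (grey). Bound regions stand at 54.4% in the class of 11 samples and at 7.13% in the class of 1 sample, whereas the others reach 22.1% in both.

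Counts were scaled to counts per 1000000 reads (CPM) with the TMM factors of edgeR, which correct the totals for differences in composition. The median count of the bound regions by ATAC-seq was 28.1 CPM in FRT82, 26.5 CPM in DGRP-208 and 30.1 CPM in Optix-GFP, 29.9 CPM in the early and 26.2 CPM in the late ATAC-seq tumor, and 27.5 and 26.8 CPM in the Upd samples. By FAIRE-seq it was 30.8 CPM in FRT82, 33.1 CPM in CantonS, 30.9 CPM in the early and 30.8 CPM in the late tumor. Within each technique the tumor values thus overlapped the wild type values or lay next to them. Over all samples the medians of the other regions were between 9.89 and 12.3 CPM, so that the bound regions were 2.47 to 3.02 times as high. The bound regions are also longer, and per kilobase their median was 1.58 to 1.88 times that of the others. Bound regions took between 14.3% and 16.1% of the reads in each sample on 11.2% of the merged peak sequence. The share was 14.7 to 16.1% in wild type and 14.9 to 15.6% in tumor ATAC-seq samples, so that these groups overlapped, and 14.4 to 15.4% and 14.3 to 14.8% by FAIRE-seq. Among the 1000 merged peaks with the highest wild type counts, 219 (21.9%) were bound.

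**Figure D2:**
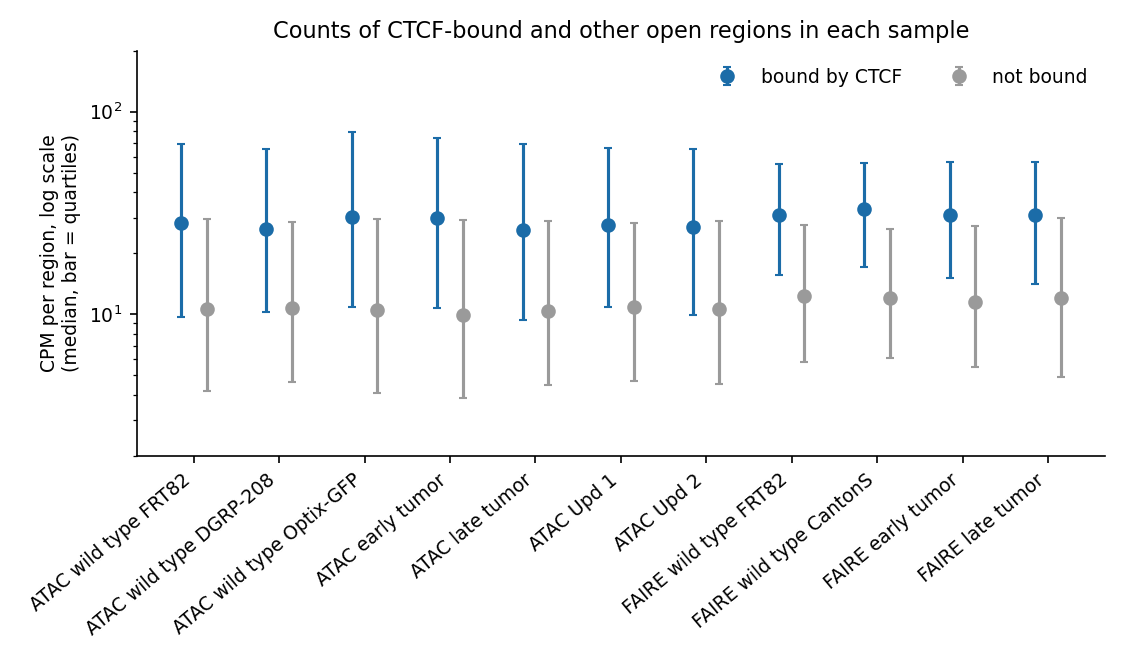
The median CPM per region (log axis, bars from the lower to the upper quartile) is plotted for the 11 samples, with bound regions in blue and the others in grey. The blue medians lie between 26.2 and 33.1 CPM and the grey ones between 9.89 and 12.3 CPM in every genotype and technique.

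None of the 5 bound regions with the highest wild type counts passed the threshold in tumors. The region on 2R from 18821211 to 18822602, which overlaps 2 CTCF peaks, led with 743, 559 and 1005 CPM in FRT82, DGRP-208 and Optix-GFP by ATAC-seq, and 582 and 233 CPM in FRT82 and CantonS by FAIRE-seq. Its tumor values of 730 and 620 CPM by ATAC-seq fell among the wild types. Second was a region on X from 1292556 to 1294389 with 621, 545 and 1349 CPM in FRT82, DGRP-208 and Optix-GFP, so that the Optix-GFP sample was more than 2-fold above the other strains. In the tumors it had 460 and 452 CPM by ATAC-seq, with a log2 fold change of -0.79 ± 0.23 (SE) over both techniques and an edgeR adjusted p of 0.013, which missed the threshold of 0.01. The other 3 of the highest 5, all on 2R, lay from 6469892 to 6471361, from 17590062 to 17590865 and from 2122721 to 2123974. Their log2 fold changes between tumors and wild types were -0.08 ± 0.14, -0.35 ± 0.14 and -0.02 ± 0.15, and none passed (edgeR adjusted p = 0.72, 0.0629 and 0.942).

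The first comparison asked how the open regions bound by CTCF changed in RasV12; scrib-/- tumors. With both techniques in 1 model and the technique as a term, 101 bound regions opened and 173 closed at an edgeR adjusted p under 0.01, which together is 9.17% of them, while 11.6% of all merged peaks opened, 12.5% closed and 24.0% did either. Among the regions without CTCF the share was 25.4%. The size of the changes differed in the same way, since the median absolute log2 fold change was 0.23 at bound regions and 0.55 at the others. Of the bound regions, 75.6% stayed within 0.5 on the log2 scale, against 46.7% of the others. The median log2 fold change was -0.02 at bound regions and -0.04 at the others. With DESeq2 in place of edgeR, 192 bound regions opened and 182 closed, beside 15.6% and 13.6% of all merged peaks.

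In ATAC-seq alone, with 3 wild type and 2 tumor samples, 155 bound regions opened and 165 closed (10.7% in all), whereas 13.5% of all merged peaks opened, 12.8% closed and 26.3% did either. The median absolute log2 fold change was 0.34 for the bound and 0.72 for the other regions. In FAIRE-seq alone, with 2 wild type and 2 tumor samples, 13 bound regions opened and 19 closed (1.07%), beside 1.58% and 0.781% of all merged peaks in these directions and 2.36% in either. The share of closing bound regions in FAIRE-seq, 0.636%, was thus near that of all merged peaks. How many bound regions FAIRE-seq calls depends on single libraries, and the shares of the other regions also varied widely under the alternatives run. A fit without 1 of the tumors leaves a single tumor library, so that only its effect sizes are given. Without the early tumor the median log2 fold change was 0.01 at bound and -0.01 at other regions. Without the late tumor it was 0.01 and -0.02. Of the 32 bound regions called by FAIRE-seq, 29 were also called by ATAC-seq with the same sign. Every tumor lay above every wild type of its technique at 277 bound regions (9.27%) and below at 290 (9.70%), against 17.0% and 18.3% of all merged peaks.

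Over both techniques, the share of changed regions was lower at bound regions within every quartile of count and of length. In FAIRE-seq alone the shortest quartile had the reverse order, with 2 of 291 bound regions changed (0.687%) against 0.315% of the others. In the quartile of merged peaks with the lowest mean count, 5.74% of the bound and 13.2% of the other regions changed in tumors over both techniques. The next quartiles gave 11.6% against 27.7% and 9.60% against 32.4%, and in the highest 8.70% of 1459 bound regions changed against 29.2% of 7668 others. Length gave the same order, with 7.22%, 4.36%, 9.37% and 11.8% of the bound regions changed from the shortest to the longest quartile, against 13.3%, 19.8%, 34.0% and 35.9% of the others. Regions that were called in all 5 wild type samples can be compared as well, and there 7.93% of 1765 bound regions changed against 21.6% of 8975 others. These shares are a description of regions that share samples, and no test was made between them.

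The share of changed regions also moved with the distance to a CTCF peak. It was 9.17% at bound regions, 18.3% at the 2056 other regions less than 1 kb from a CTCF peak, 27.4% between 1 and 5 kb, 26.6% between 5 and 20 kb and 24.4% beyond. How much of a CTCF peak a region covered made little difference, since 9.55% of the regions that covered 80% or more changed, 9.15% of those between 40 and 80% and 8.51% of those under 40%. Of the 68 regions that overlapped 2 or 3 CTCF peaks, 17.6% changed, against 8.97% of those with 1. The 68 were also longer, with a median of 872.5 bp against 367 bp. At the border of the rule, the 67 bound regions that overlapped a CTCF peak by under 50 bp changed in 14.9% and had a median wild type ATAC-seq count of 9.95 CPM. The 67 unbound regions with a gap under 50 bp changed in 8.96%, with a median of 9.32 CPM. By chromosome arm, between 7.70% (3R) and 10.2% (3L) of the bound regions changed on the large autosomal arms and X, beside 23.5 to 27.8% of the others. On chromosome 4, 2 of 32 bound regions (6.25%) and 9.36% of the others changed.

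**Figure D3:**
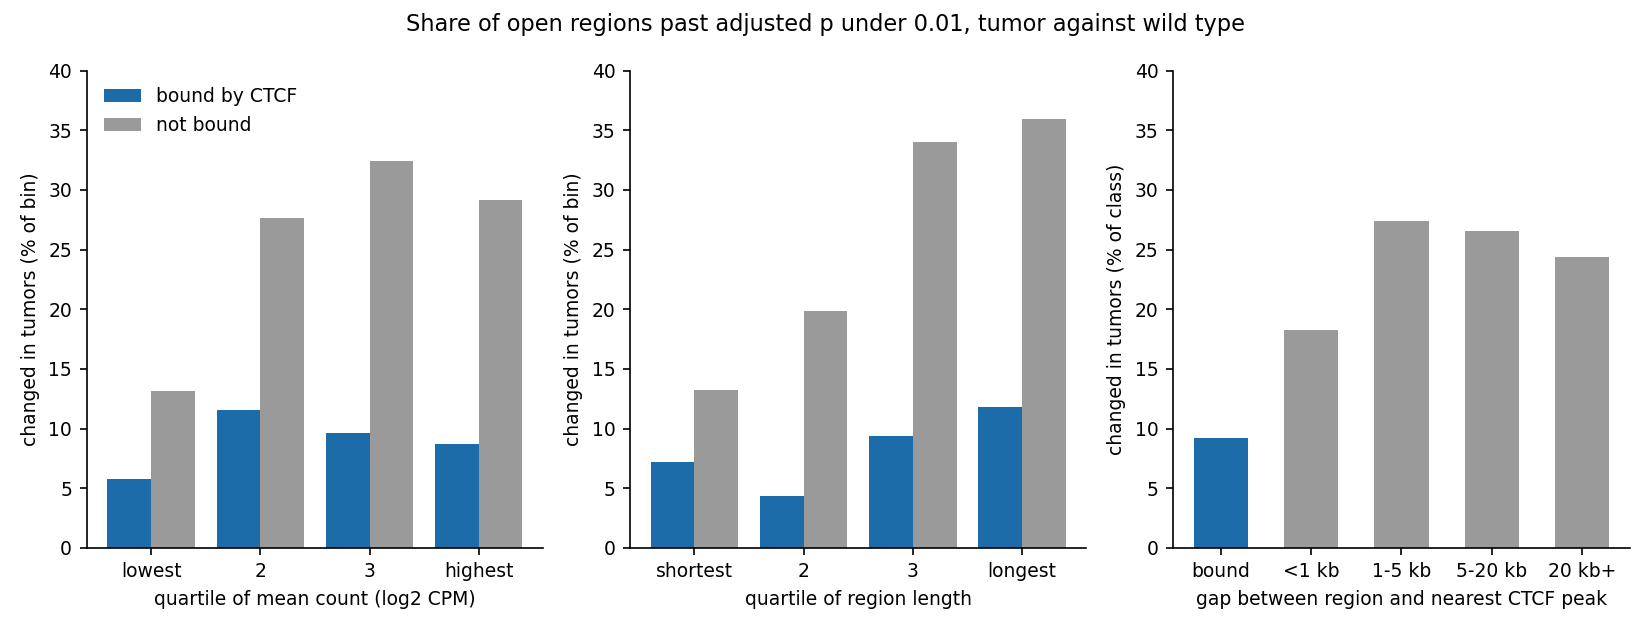
Bars give the percentage of regions past an edgeR adjusted p of 0.01 between tumors and wild types over both techniques, by quartile of mean count (left), by quartile of length (middle) and by the gap to the nearest CTCF peak (right), with bound regions in blue and the others in grey. Blue bars range from 4.36 to 11.8%, and each lies below the grey bar of its bin, while the grey bars of the right panel start at 18.3% under 1 kb and lie between 24.4 and 27.4% beyond.

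Between wild type strains the gap was small by ATAC-seq. Among the 3 wild type ATAC-seq samples, the SD of log2(CPM + 1) per region had a median of 0.27 at bound and 0.28 at other regions, but within each quartile of counts it was higher at bound regions, from 0.34 against 0.32 in the lowest to 0.24 against 0.23 in the highest. Between the 2 wild type FAIRE-seq samples it was 0.18 at bound and 0.23 at other regions, with the order turned in the lowest quartiles (0.33 against 0.28, then 0.25 against 0.24). When the tumor and Upd samples were added, the median SD over the 7 ATAC-seq samples was 0.32 and 0.45, and in the highest quartile 0.28 and 0.34. Samples of a group differed by more than counting error, and over the bound regions the chi-square divided by its degrees of freedom was between 3.64 (Upd) and 20.4 (ATAC-seq of FRT82 and Optix-GFP).

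The 101 opening bound regions had a median of 22.9 CPM in wild type and 66.1 CPM in tumor ATAC-seq samples, and of 29.1 and 49.7 CPM by FAIRE-seq. Of these, 57 rose 2-fold or more, and 27 had not been called in any wild type sample. Among the 4125 opening regions without CTCF, 2424 had not been called in any wild type sample. The 173 closing regions went from a median of 38.6 to 13.4 CPM by ATAC-seq and from 24.5 to 12.1 CPM by FAIRE-seq, and 141 fell 2-fold or more. Changes of 2-fold or more were thus found at 6.62% of the bound regions and at 20.7% of all merged peaks. Of the closing bound regions, 79 were called in no tumor sample, and the matching count for the other regions is not given here. With the size factors of DESeq2 in place of TMM the split moved to 135 opening and 146 closing regions. These were 9.40% of the bound regions, beside 25.5% of the others that changed. Without the early ATAC-seq tumor the split was 57 and 78 (4.52% beside 15.6%), and without the late ATAC-seq tumor 59 and 74 (4.45% beside 14.5%). Without the late FAIRE-seq tumor 114 regions closed, and 6.36% of the bound and 19.1% of the other regions changed.

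The 5 closing regions with the largest change ranged widely in height. The first, on 2L from 2202488 to 2203710 had 562, 466 and 526 CPM in FRT82, DGRP-208 and Optix-GFP and 45.0 and 53.4 CPM in the early and late tumor by ATAC-seq. By FAIRE-seq it had 174 and 178 CPM in FRT82 and CantonS and 31.7 and 19.4 CPM in the tumors. That all tumors lie below the wild types of their technique was a condition for naming these 5 regions. Its log2 fold change was -3.15 ± 0.20 (edgeR adjusted p = 2.81e-06), and the Upd samples kept 381 and 425 CPM. The second, on 3L from 17957821 to 17958973, fell from 553, 441 and 423 CPM to 47.3 and 37.2 CPM by ATAC-seq and from 193 and 134 CPM to 46.9 and 21.9 CPM by FAIRE-seq, with a log2 fold change of -2.94 ± 0.29 (edgeR adjusted p = 3.21e-05). On 3L from 16168227 to 16168775 the ATAC-seq counts were 152, 114 and 195 CPM in wild types and 14.6 and 11.7 CPM in tumors. It also had the largest Upd difference of the 5, with 67.5 and 101 CPM in the Upd samples, although the log2 fold change of -0.85 ± 0.26 did not pass (edgeR adjusted p = 0.507). The lowest of the 5, on 3L from 21595033 to 21595393, had 45.8, 38.3 and 47.8 CPM in wild types and 2.80 and 5.74 CPM in tumors by ATAC-seq. It and the remaining region, on 2L from 13043942 to 13044567, had log2 fold changes of -2.61 ± 0.34 and -2.71 ± 0.31 (edgeR adjusted p = 8.66e-05 and 4.36e-05). In each of the 5 regions, the CTCF peak lies wholly within the open region, and both techniques passed the threshold alone.

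The opening list was led by a single locus. Of the 5 opening regions with the largest change, 4 lie on X under the same CTCF peak, which runs from 2683928 to 2687365 and is the longest under any bound region (3438 bp). They are therefore not independent examples of opening at CTCF sites, and each covers less than 40% of that peak. The first, from 2686861 to 2687223, had 6.31, 3.97 and 9.49 CPM in FRT82, DGRP-208 and Optix-GFP, 27.7 and 56.5 CPM in the early and late tumor and 8.38 and 13.9 CPM in the Upd samples by ATAC-seq, with 7.25 and 2.11 CPM in wild types and 18.6 and 28.2 CPM in tumors by FAIRE-seq. Its log2 fold change was 2.59 ± 0.35 (edgeR adjusted p = 9.57e-05). The others, from 2686350 to 2686683, from 2685351 to 2685497 and from 2686696 to 2686826, rose by 2.27 ± 0.44, 2.23 ± 0.37 and 2.20 ± 0.36 on the log2 scale (edgeR adjusted p = 0.00112, 0.000397 and 0.000355). Each was called as a peak in only 1 of 11 samples. The region from 2686350 passed in neither technique alone (edgeR adjusted p = 0.0303 by ATAC-seq and 0.0109 by FAIRE-seq). Its early ATAC-seq tumor had 9.25 CPM and Optix-GFP 8.18 CPM. The region from 2686696 did not pass in FAIRE-seq alone (edgeR adjusted p = 0.0243), while that from 2685351 passed in both. Of 14 alternatives, the region from 2686350 lost the call in 2, among them the fit without the late ATAC-seq tumor (edgeR adjusted p = 0.0179). Those from 2685351 and from 2686696 each lost it in 1 of 14. The fifth bound region under this CTCF peak, from 2683823 to 2685253, opened by 1.09 ± 0.26 (edgeR adjusted p = 0.00467).

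Next to this locus the wild type strains themselves differed. The bound region on X from 2690019 to 2690830 had 0.134 CPM in the FRT82 ATAC-seq sample, 24.6 CPM in DGRP-208 and 11.3 CPM in Optix-GFP, against 218 and 255 CPM in the ATAC-seq tumors and 64.3 and 67.0 CPM in the Upd samples. Its log2 fold change in tumors of 3.34 ± 0.94 did not pass (edgeR adjusted p = 0.0305). The FRT82 sample of FAIRE-seq, with the same genotype label, had 41.7 CPM there. A second region from 2690874 to 2691080 was listed at 0 in both FRT82 samples and in Optix-GFP, but had 7.28 CPM in DGRP-208 and 4.65 CPM in CantonS. It had 1.72 and 2.23 CPM in the ATAC-seq tumors and 12.6 and 10.8 CPM in the Upd samples, and its log2 fold change in tumors was -0.29 ± 1.08 (edgeR adjusted p = 0.868). Both regions were looked at because of their place, after the values at the locus were seen. The tumor and Upd crosses carry several transgenes, reads from a copy of a locus elsewhere in the genome cannot be told apart from reads of the locus itself in these counts, and their part in the opening at X was not tested.

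The remaining region of the opening list lies on 3L from 6702790 to 6703172. It had 2.42, 3.31 and 3.76 CPM in the wild types, 26.2 and 36.4 CPM in the tumors and 4.36 and 3.13 CPM in the Upd samples by ATAC-seq. By FAIRE-seq the gap was small, with 7.25 and 6.90 CPM in wild types and 8.21 and 16.0 CPM in tumors. It opened by 2.21 ± 0.42 over both techniques (edgeR adjusted p = 0.000965) and by 3.32 ± 0.32 in ATAC-seq (edgeR adjusted p = 2.81e-06), while FAIRE-seq alone did not pass (0.83 ± 0.41, edgeR adjusted p = 0.225).

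**Figure D4:**
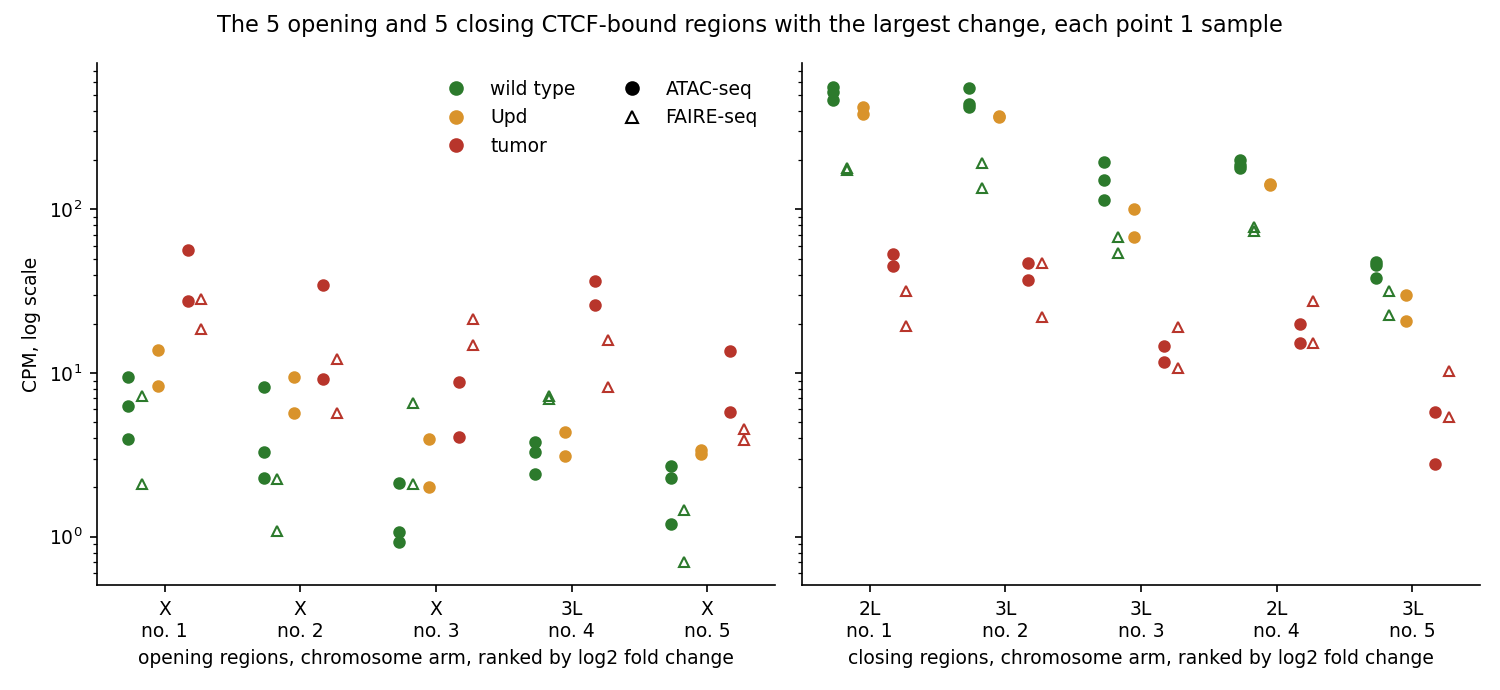
CPM (log axis) in each sample of the 5 opening (left) and 5 closing (right) bound regions with the largest log2 fold change, by chromosome arm, with wild types in green, Upd in orange and tumors in red, and ATAC-seq as filled circles and FAIRE-seq as open triangles. The regions were selected to have all tumors of a technique on 1 side of its wild types, and the opening regions numbered 1, 2, 3 and 5 lie under 1 CTCF peak.

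The tables of the study pair 485 merged peaks with a gene, and 11 of these (2.27%) were bound by CTCF, against 8.19% of all merged peaks. Among the 8771 merged peaks called in tumors over both techniques, 274 were bound. The study chose the regions of its tables for their change in the same samples. Neither their share of bound regions nor their direction is therefore independent evidence. For the 10 with the highest wild type counts, all 10 closed over both techniques. On 2R from 15259820 to 15260968, paired with *CG9416*, ATAC-seq counts were 249, 190 and 265 CPM in FRT82, DGRP-208 and Optix-GFP and 41.7 and 35.8 CPM in the tumors, a log2 fold change of -2.13 ± 0.25 (edgeR adjusted p = 4.8e-05). The region of *ana*, which encodes a secreted glycoprotein that holds neuroblasts back from division, lies on 2R from 4951557 to 4952211. It had 84.4, 63.2 and 104 CPM in wild types and 16.6 and 13.9 CPM in tumors by ATAC-seq and changed by -2.11 ± 0.25 (edgeR adjusted p = 4.95e-05). *sm* encodes an RNA-binding protein of the hnRNP L family, and its region on 2R from 15519337 to 15519922 had 119, 119 and 131 CPM in wild types, 30.1 and 34.4 CPM in tumors and 127 and 123 CPM in the Upd samples. The CTCF peak at *sm* overlaps only the edge of the open region and runs on to 15521252.

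The others of these 10 fell by less. Regions paired with *CG9005* (2R from 7517093 to 7517768), *CG11353* (3L from 4532755 to 4533550) and *CG14476* (X from 21476555 to 21477057) had log2 fold changes of -1.44 ± 0.18, -1.37 ± 0.24 and -1.47 ± 0.27. Those of *Obp99b*, an odorant-binding protein gene (3R from 25544326 to 25544652), of *ImpE1*, a gene induced by ecdysone in discs (3L from 8365035 to 8365605), of *spz6*, which encodes a ligand of the Spätzle family (2R from 20644578 to 20645589), and of *CG9896* (2R from 18885954 to 18886674) had -1.77 ± 0.42, -1.11 ± 0.24, -1.06 ± 0.25 and -1.06 ± 0.22. All 7 passed the edgeR threshold, with adjusted p between 6.98e-05 and 0.00414. Each of the last 4 lost the call without the early or without the late ATAC-seq tumor (adjusted p between 0.0132 and 0.0307), and none of the 4 passed in FAIRE-seq alone. *Obp99b* also lost it without the FRT82 or the late tumor FAIRE-seq sample, *ImpE1* without the FRT82 FAIRE-seq sample, and *spz6* without the DGRP-208 ATAC-seq sample.

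Overexpression of Upd changed no bound region at an edgeR adjusted p under 0.01, while 0.00548% of all 36504 tested merged peaks rose, 0.011% fell and 0.0164% did either. This comparison shares its 3 wild type samples with the tumor comparison. At an unadjusted p under 0.05, 48 bound regions were higher (1.61%, beside 3.13% of all merged peaks) and 109 lower (3.65%, beside 3.93%). The median log2 fold change was -0.06 at bound regions and 0.00 at the others, and in the highest quartile of counts it was -0.10 and -0.12. DESeq2 called 0 bound regions higher and 3 lower, beside 0.0384% and 0.0849% of all merged peaks. They were chosen after their values were seen, because they are few. The region on 2L from 13458979 to 13459357 had 42.5, 44.8 and 57.9 CPM in FRT82, DGRP-208 and Optix-GFP and 14.1 and 16.1 CPM in the Upd samples, with an edgeR log2 fold change of -1.67 ± 0.24 (edgeR adjusted p = 0.042). On 3L from 1576453 to 1576773 the counts were 56.0, 49.5 and 72.5 CPM against 20.8 and 19.6 CPM. On 2R from 19503774 to 19503987 they were 9.94, 8.08 and 10.3 CPM against 2.01 and 0.817 CPM. The Upd samples were below all wild types in all 3 regions, with an edgeR adjusted p of 0.0551 for the last 2. In the tumors the log2 fold change of these 3 regions was -0.71, -1.10 and 1.24, and the last 2 passed the edgeR threshold (adjusted p = 0.0194, 0.00273 and 0.00143).

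Late and early tumors were compared with 1 sample of each stage per technique, in a fit that takes the spread from the wild types as well. Neither edgeR nor DESeq2 called a bound region, beside 0.0% of all merged peaks by edgeR and, by DESeq2, 0.00348% higher and 0.0244% lower. Without adjustment, edgeR gave p under 0.05 for 19 higher (0.636%, beside 1.93% of all merged peaks) and 64 lower (2.14%, beside 2.18%) regions in the late tumors. The median log2 fold change from early to late was -0.07 at bound regions and 0.02 at the others. By technique, the median difference of log2(CPM + 1) was -0.09 against 0.05 by ATAC-seq and -0.015 against 0.0049 by FAIRE-seq. At 39.6% of the bound regions and 55.1% of the others the late ATAC-seq tumor was above the early one, and by FAIRE-seq at 47.4% and 50.6%. A single library per stage and technique gives no measure of the spread of these medians.

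Between the techniques, 28.6% of the bound and 22.6% of the other regions differed in wild type discs, and this difference in share was not tested. Only FRT82 was measured by both techniques, and the fit did not pair its samples. Strain and technique therefore cannot be fully told apart in this comparison. In the highest quartile of counts, which holds 1474 of the bound regions, the order turned, with 28.0% against 33.8%, and in the longest quartile the shares were 31.2% and 32.3%. Of all bound regions, 468 had higher scaled counts by FAIRE-seq (15.7%) and 388 by ATAC-seq (13.0%), whereas 13.2% of all merged peaks were higher by FAIRE-seq, 9.94% by ATAC-seq and 23.1% by either. The split depends on the scaling, since total counts gave 772 and 199 regions, and the median log2 fold change of the other regions went from 0.01 with TMM to 0.41 with total counts. Relative to the other regions the median of the bound regions was 0.05 lower under both scalings, but the difference lay between -0.10 and 0.01 when 1 sample was left out. It was larger for other definitions of a bound region, at -0.21 with 40% and -0.30 with 80% of a CTCF peak covered and -0.18 with the CTCF centre inside. The counts of differing regions also depend on the FAIRE-seq libraries, and the shares of the other regions varied widely under the alternatives run as well. A fit without FRT82 or CantonS leaves a single FAIRE-seq sample, so that only its medians are given. Without FRT82 by FAIRE-seq the median was -0.01 at bound and at other regions. Without CantonS it was -0.11 and -0.01.

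The direction followed the height of a region. In the lowest quartile of counts the median log2 fold change of FAIRE-seq over ATAC-seq was 1.08 at bound and 0.62 at other regions, and in the next quartiles it was 0.69 against 0.17 and 0.49 against -0.04. In the highest quartile it was -0.47 against -0.63. Within each quartile the median of the bound regions was thus shifted towards FAIRE-seq relative to the others. Unbound regions near a CTCF peak leaned the same way, with a median of 0.23 at a gap under 1 kb. The median was 0.05 between 1 and 5 kb, 0.01 between 5 and 20 kb and -0.05 beyond. At the border of the rule it was 0.40 at bound regions with an overlap under 50 bp and 0.34 at unbound regions with a gap under 50 bp. Among regions called in all 5 wild type samples the medians were -0.27 at bound and -0.30 at other regions. They were 0.55 and -0.13 among regions called in 1 to 4 wild types, and 0.80 and 0.78 among those called in none. The direction also moved with coverage of the CTCF peak. Of the regions that covered under 40% of a CTCF peak, 193 were higher by FAIRE-seq and 33 by ATAC-seq. Of those that covered 80% or more, 177 were higher by FAIRE-seq and 312 by ATAC-seq. These classes differ in height too, with median wild type ATAC-seq counts of 10.5 and 56.6 CPM. FAIRE-seq and ChIP-seq both used fixed tissue and shared the CantonS strain, and the part of either was not tested.

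**Figure D5:**
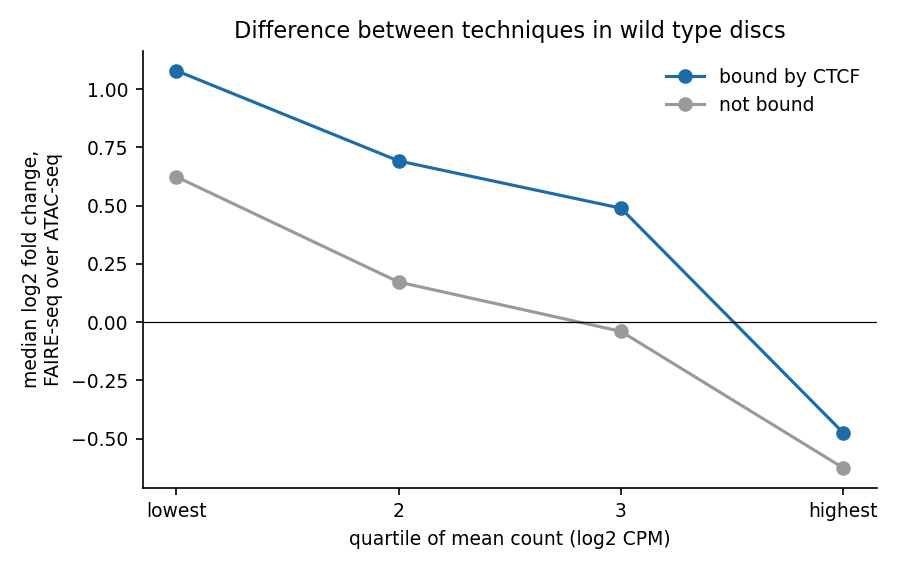
Median log2 fold change of FAIRE-seq over ATAC-seq in wild type discs, with TMM scaling, by quartile of mean count for bound (blue) and other (grey) regions. Blue lies above grey in each quartile, from 1.08 against 0.62 in the lowest to -0.47 against -0.63 in the highest.

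The regions with the largest excess by FAIRE-seq were low and short. On 3L from 8644931 to 8645127 the counts were 0.403, 0.662 and 0.818 CPM in FRT82, DGRP-208 and Optix-GFP by ATAC-seq, but 3.62 CPM in FRT82 and 29.4 CPM in CantonS by FAIRE-seq. Here the strains disagreed within FAIRE-seq, and the call (log2 fold change 4.75 ± 0.83, edgeR adjusted p = 0.00346) was lost without CantonS and without each of the ATAC-seq wild types. On 2R from 8409138 to 8409245 the ATAC-seq counts lay between 0.164 and 0.530 CPM against 5.80 and 7.04 CPM by FAIRE-seq, and on 2L from 5366189 to 5366372 between 0.265 and 0.672 CPM against 10.1 and 6.06 CPM. These 2 differed by 4.21 ± 0.56 and 4.14 ± 0.55 (edgeR adjusted p = 9.07e-05 and 8.8e-05).

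Regions with the largest excess by ATAC-seq were high in both techniques. The leading ones were on 3L from 18233543 to 18233958 with 262, 205 and 334 CPM by ATAC-seq against 56.9 and 45.4 CPM by FAIRE-seq, and the region on X from 1292556 to 1294389 described above, which had 156 and 165 CPM by FAIRE-seq. Next, the region on 3R from 3300260 to 3301148 had 432, 349 and 509 CPM against 79.4 and 87.0 CPM. Their log2 fold changes were -2.39 ± 0.28, -2.39 ± 0.38 and -2.37 ± 0.26 (edgeR adjusted p = 5.47e-05, 0.00077 and 4.38e-05). The call on X was lost without either FAIRE-seq sample.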

How the data were processed

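The authors clipped adapters, mapped reads with Bowtie2 to dm3, discarded reads of mapping quality under 4 and *Wolbachia* reads, centred ATAC-seq reads on cut sites, called peaks per sample with MACS2 (q of 0.01), merged them and counted reads with HTSeq. They deposited raw counts per merged peak for 11 samples without normalization, and peak positions (start and end, with no score). The ChIP-seq input was not analysed here. Positions count from 1 in dm3. Genes come only from the region tables of the study. No annotation of dm3 was used.

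Overlaps were computed in Python 3.11.15. Comparisons used edgeR 4.0.16 in R 4.3.3 (TMM, quasi-likelihood F-test, p-values adjusted by Benjamini-Hochberg across every merged peak that had reads, threshold 0.01), in the samples compared only, with the technique as a term in the tumor comparison over both techniques. Late and early tumors were compared in a fit of all 9 wild type and tumor samples with that term, which pools the spread over them. The fits were tested on simulated data. SE is the absolute log2 fold change over the root of F. Quartile bins were taken over all merged peaks. Alternatives were DESeq2 1.42.0 (Wald test, or its size factors in edgeR), total counts, filterByExpr, a threshold of 0.05, no technique term, leaving out each sample, and other definitions of a bound region. Reads have no molecular identifiers.

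The regions and rules were chosen with earlier results of these data known. Named regions were the 5 highest in wild type, the 5 opening and 5 closing most (mean count of 10 or more, tumors on 1 side of the wild types of their technique), up to 3 per direction for Upd and for technique, and up to 10 paired with a gene. A check of motifs and of gene lists was not made. Figures were drawn with matplotlib 3.10.9.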

Additional observations from a re-analysis of the deposited data

Results flagged for a closer look

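Signal was found in data that the comparisons do not use, since 45 CTCF peaks lie outside the 6 chromosome arms, where no open chromatin counts were used. No group has 4 or more samples, so that no sample was tested for standing apart from its group.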

How the results depend on the processing

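Counts of bound regions higher and lower in tumors over both techniques were 192 (higher) with DESeq2, 28 and 47 without the technique term, 228 and 312 at a threshold of 0.05, and 58 and 89 when 80% of a CTCF peak had to be covered. Leaving out 1 sample gave 57 to 115 higher and 74 to 200 lower. In ATAC-seq alone they were 282 and 278 at 0.05, 92 and 83 at 80% cover, and 51 to 171 and 53 to 164 without 1 sample. In FAIRE-seq alone they were 46 and 57 at 0.05, 30 lower with total counts, 8 higher at 80% cover, and 0 to 44 and 3 to 60 without 1 sample. The share of other regions changed over both techniques was 2.18 to 3.95 times that of bound regions under all alternatives run.

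For Upd, DESeq2 gave 3 lower regions, a threshold of 0.05 gave 1 lower, and leaving out 1 sample gave 0 to 1 in each direction. For late against early tumors every alternative gave 0. Between techniques, total counts gave 772 higher and 199 lower by FAIRE-seq, a threshold of 0.05 gave 638 lower, and 40% cover, 80% cover and the CTCF centre gave 275, 177 and 310 higher, with 80 to 505 higher and 18 to 399 lower without 1 sample. The height of bound over other regions, 2.64 times as a mean of 11 samples, became 3.67 at 40% cover, 4.57 at 80% cover, 3.48 with the CTCF centre and 2.08 among regions called in a wild type sample. With at least 40% of a region covered by the peak of each sample, 38.8% of the bound and 14.1% of the other regions were called in all 11 samples. Definitions with more cover keep fewer and higher regions, and the cause of the other shifts was not tested. Of 404 values of named regions, 375 kept their direction and side of the threshold, 27 no longer passed, 2 newly passed and 0 reversed.

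No paired analysis was made. Only the Upd samples carry replicate numbers in the labels, and the wild types and tumors have none to pair them with. FRT82 is the only wild type strain measured by both techniques, and its samples were not compared on their own. The median count per bound region was lowest in the FRT82 FAIRE-seq sample (85 reads), and the early ATAC-seq tumor had the fewest bound regions with 10 or more reads (2870).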
